A study of Mus musculus with 41 samples.

Results

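Tumour-associated macrophages (TAM) of irradiated tumours were compared with TAM of untreated tumours across all genes of the authors' deposited table for this contrast. The TAM libraries are 15 of the 41 in the series, 10 from irradiated tumours (numbers 6 to 15) and 5 from untreated ones (numbers 1 to 5). All tumours grew from MC38-luc, a mouse colon adenocarcinoma line that carries luciferase, implanted orthotopically into the rectum of female C57BL6 mice whose age the labels do not give. Irradiated tumours received 5 daily fractions of 5 Gy on days 9 to 13, and both groups were harvested on day 14. Cells were sorted as CD45+, CD11b+, Ly6C-, Ly6G- and F4/80+, and low-input RNA libraries were sequenced. The labels name no shared litter, cage or day, and irradiated and untreated libraries come from different tumours.

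TAM are macrophages that infiltrate a tumour or reside in it, and many derive from blood monocytes that mature in the tissue. They clear dying cells, present antigen, secrete cytokines and growth factors, and handle the lipid and iron of the cells they take up. Ionising radiation breaks DNA, which activates p53, a transcription factor that halts division and can start apoptosis. Fragments of DNA or RNA in the cytosol can also switch on type I interferon, whose target genes restrict viruses.

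The table lists 55453 genes with a mean normalised count, a log2 fold change (irradiated over untreated), a Wald statistic and p-values before and after adjustment. The Wald statistic is an effect divided by its standard error, and it is the measure of error available, because the values of each library were not analysed here. No SD is therefore given, and the depth of the libraries is unknown. The mean is the same number in the tables of the other sorted subsets, so it describes no single subset, and the sort label could not be checked against the level of Adgre1 (F4/80), C1qa, Ms4a7 or Apoe in TAM. Here a gene rose or fell when its adjusted p was under 0.05, with the direction of the Wald statistic. The log2 fold changes are shrunken, so noisy genes are pulled towards 0. In bulk RNA, fewer cells of a type and less RNA per cell cannot be told apart.

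An adjusted p was present for 16851 genes. Of these, 4448 passed (26.4%), with 2340 that rose (13.9%) and 2108 that fell (12.5%). The median log2 fold change over all tested genes was 0.03 in the authors' deposited table. Large effects were a minority of the calls, as 1657 called genes had an absolute fold of at least 1 on the log2 scale and 997 were under 0.5. The Wald statistics were wide: among genes with a mean of at least 50 their robust SD was 2.72. No gene passed after division by that SD (0 calls, with 625 at an unadjusted p under 0.05), and 91 passed after division by the robust SD of 2.11 over all tested genes.

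The direction of the calls differed between ranges of the mean normalised count, without a steady trend. This mean covers libraries of all subsets and is not the level in TAM. Among genes with a mean normalised count over 5000, 401 rose and 55 fell, so 87.9% of the calls were higher, and the median log2 fold change of these genes was 0.37 in the authors' deposited table. At a mean up to 10, 67.2% of the calls were higher, and between 10 and 50 the share was 51.4%. Between 1000 and 5000 it was 62%. Between 50 and 200, 236 rose and 443 fell, and 34.8% of the calls were higher. Between 200 and 1000, 533 rose and 836 fell. Leaving out every gene of the cell division lists changed the number that fell from 443 to 401 in the range from 50 to 200 and from 836 to 784 in the next. The lists left out were those of replication, mitosis, cyclins with their kinases, and homologous recombination with the Fanconi pathway. Lower calls still outnumbered higher ones from 50 to 200 and from 200 to 1000. Genes outside these lists that may also follow division, such as those of the histone clusters, were kept. What else differs between the ranges was not tested.

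**Figure D1:**
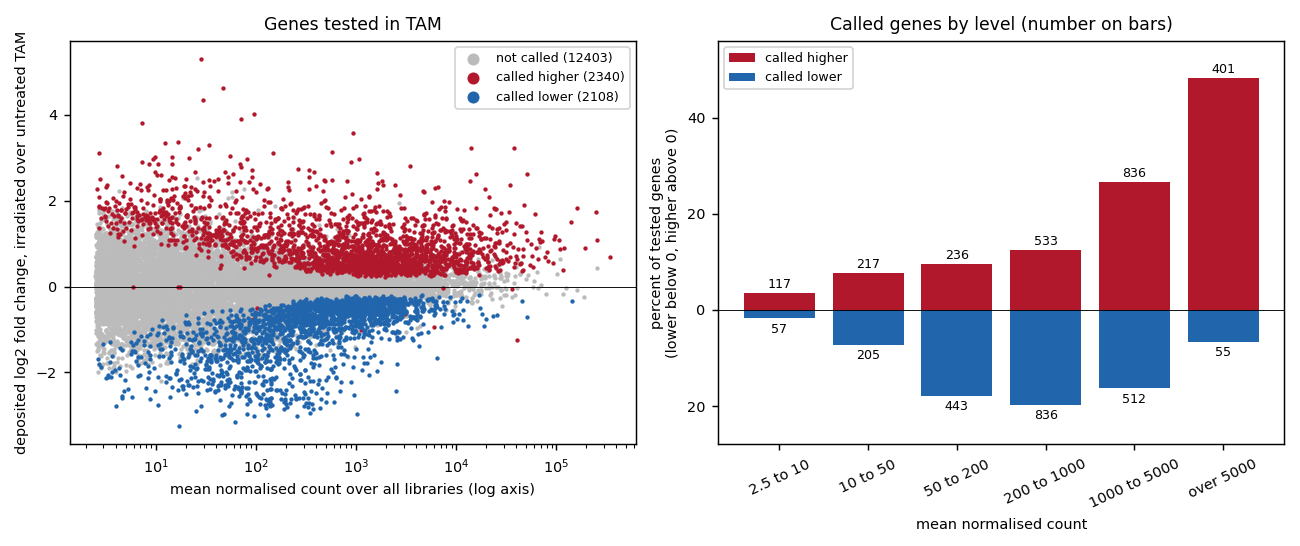
Left, each tested gene's deposited log2 fold change (irradiated over untreated TAM) against its mean normalised count on a log axis, with genes called higher in red (2340) and lower in blue (2108). Right, the percent of tested genes called in each range of mean count, with the numbers on the bars: the share called higher grows with the mean, and over 5000 there are 401 higher and 55 lower calls.

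Markers of the cell types that the gate could hold were described first. Of 14 macrophage markers, 4 rose and none fell. On the log2 scale of fold changes, the authors' deposited table has 1.14 for the clearance receptor gene Mertk and 1.08 for the apolipoprotein gene Apoe. Adgre1, which encodes the sorted antigen F4/80, had 0.36 in the same authors' deposited table (adjusted p = 0.071), C1qa had -0.08 and Ms4a7 had 0.18. Genes listed as classical monocyte markers moved further. Of 14, 9 rose, among them Nr4a1, which is counted again with the early-response factors below. The authors' deposited table has log2 fold changes of 3.22 for Chil3 and 3.22 for the haptoglobin gene Hp. Ly6c2, which encodes the antigen that the gate excludes, had 1.96 there. Ccr2, the chemokine receptor of classical monocytes, had 0.03 there (adjusted p = 0.93).

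Of 19 neutrophil markers, 14 rose by the Wald statistic, but among these Ngp, Camp, S100a8, S100a9 and Stfa2l1 had a negative log2 fold change. The authors' deposited table gives Csf3r, the G-CSF receptor gene, a log2 fold change of 1.36 with a Wald statistic of 6.77. For several granule genes the columns disagree. Ngp has a log2 fold change of -0.59 beside a Wald statistic of 9.20, Camp -0.77 beside 8.66 and S100a9 -1.24 beside 4.16 in the authors' deposited table. In all, 16 called genes had fold and statistic of opposite sign, so the direction of these genes is uncertain. Of 7 tested eosinophil markers, 4 rose, among them Prg2 with 3.03 and Siglecf with 2.48 in the authors' deposited table, while Epx, the eosinophil peroxidase gene, had a mean of 0.351 over all libraries and no adjusted p. Of 14 dendritic cell markers 5 fell, among them Batf3 with -1.25 in the authors' deposited table. Of 12 fibroblast markers 4 fell and of 6 endothelial markers 2 rose, against 12.5% lower and 13.9% higher over all tested genes. Of 9 B and plasma cell markers 1 rose and 1 fell. Of 14 T and NK cell markers 2 fell and of 13 epithelial markers 2 rose. The counts of these last 3 groups are near the shares of all tested genes. The epithelial markers nevertheless all had positive log2 fold changes, from 0.25 to 1.73, with a median of 1.46 against 0.03 over all tested genes. The T and NK cell markers ranged from -1.45 to 0.85, with a median of -0.80. Neither of the 2 tested mast cell and basophil markers passed. The range of these markers in each group was not analysed here, and their part in the results below was not tested.

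**Figure D2:**
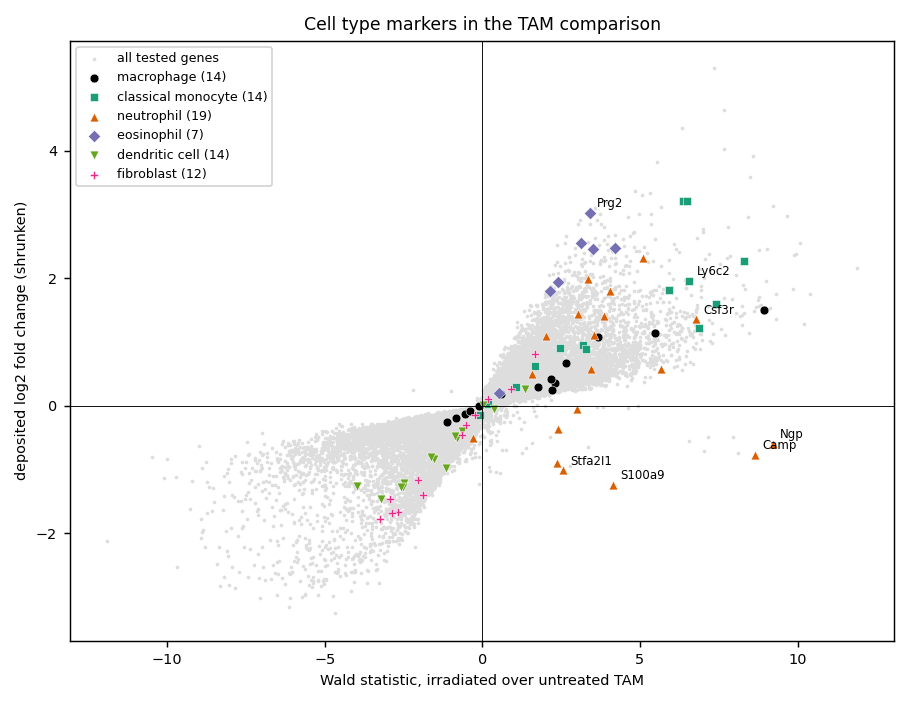
The deposited log2 fold change of each tested gene against its Wald statistic (grey), with markers of 6 cell types overlaid. Of 14 monocyte markers 9, and of 7 eosinophil markers 4, rose and lie to the upper right, the others lie nearer the origin, and Ngp, Camp, S100a9 and Stfa2l1 combine a positive statistic with a negative fold.

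Beyond the 10 genes with the smallest adjusted p in each direction, the next ranks held secreted proteins, enzymes of sugar chains and feedback genes among those that rose. The authors' deposited table lists the complement component gene C3 with a log2 fold change of 2.46 (adjusted p = 1.4e-16). B3gnt5, a glycosyltransferase gene for lacto-series glycolipids, had 2.45 in the authors' deposited table, and the galactosyltransferase gene B4galt1 had 1.15. Serpine2, a secreted inhibitor of thrombin and plasminogen activators, had 3.92 at a mean normalised count of 71.0, per the authors' deposited table. N4bp1 (1.53), the BTB domain gene Abtb2 (1.70), the phospholipase gene Ddhd1 (1.57), Csf2rb2 (1.56), which encodes a beta chain of the IL-3 receptor, and the MAP kinase phosphatase gene Dusp1 (1.83) also ranked there by log2 fold change and p in the authors' deposited table. The largest fold of all named genes belonged to Tnfsf4, the OX40 ligand gene, at 4.03 in the authors' deposited table. It was followed there by Serpine2, Phlda3 (3.59), Hp, Chil3, the muscarinic receptor gene Chrm3 (3.12), Trp53inp1 (2.98) and Arg2, the mitochondrial arginase gene (2.80). Gpr55, a lipid-sensing receptor gene (2.73), the tubulin gene Tuba8 (2.72), cathepsin K (Ctsk, 2.71) and the noncoding RNA Mirt2 (2.64) completed the 12 genes with the largest rise on the log2 scale in the authors' deposited table.

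Ranks 11 to 25 of the genes that fell held histone chaperones, replication factors and condensin subunits. The authors' deposited table has, on the log2 scale, -2.21 for the histone chaperone gene Asf1b, -1.28 for Anp32e, which removes the H2A.Z variant, and -1.20 for Ran, the GTPase of nuclear transport. Stmn1, which destabilises microtubules, had -2.83 and the kinase partner gene Cks1b had -2.49 in the authors' deposited table. The largest negative log2 fold changes there were -3.15 for Troap and -3.02 for the cyclin gene Ccnb2. Fcrls stood beside them, an Fc receptor-like scavenger gene of resident macrophages and microglia, at -2.96 (adjusted p = 6.8e-07) in the authors' deposited table.

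**Figure D3:**
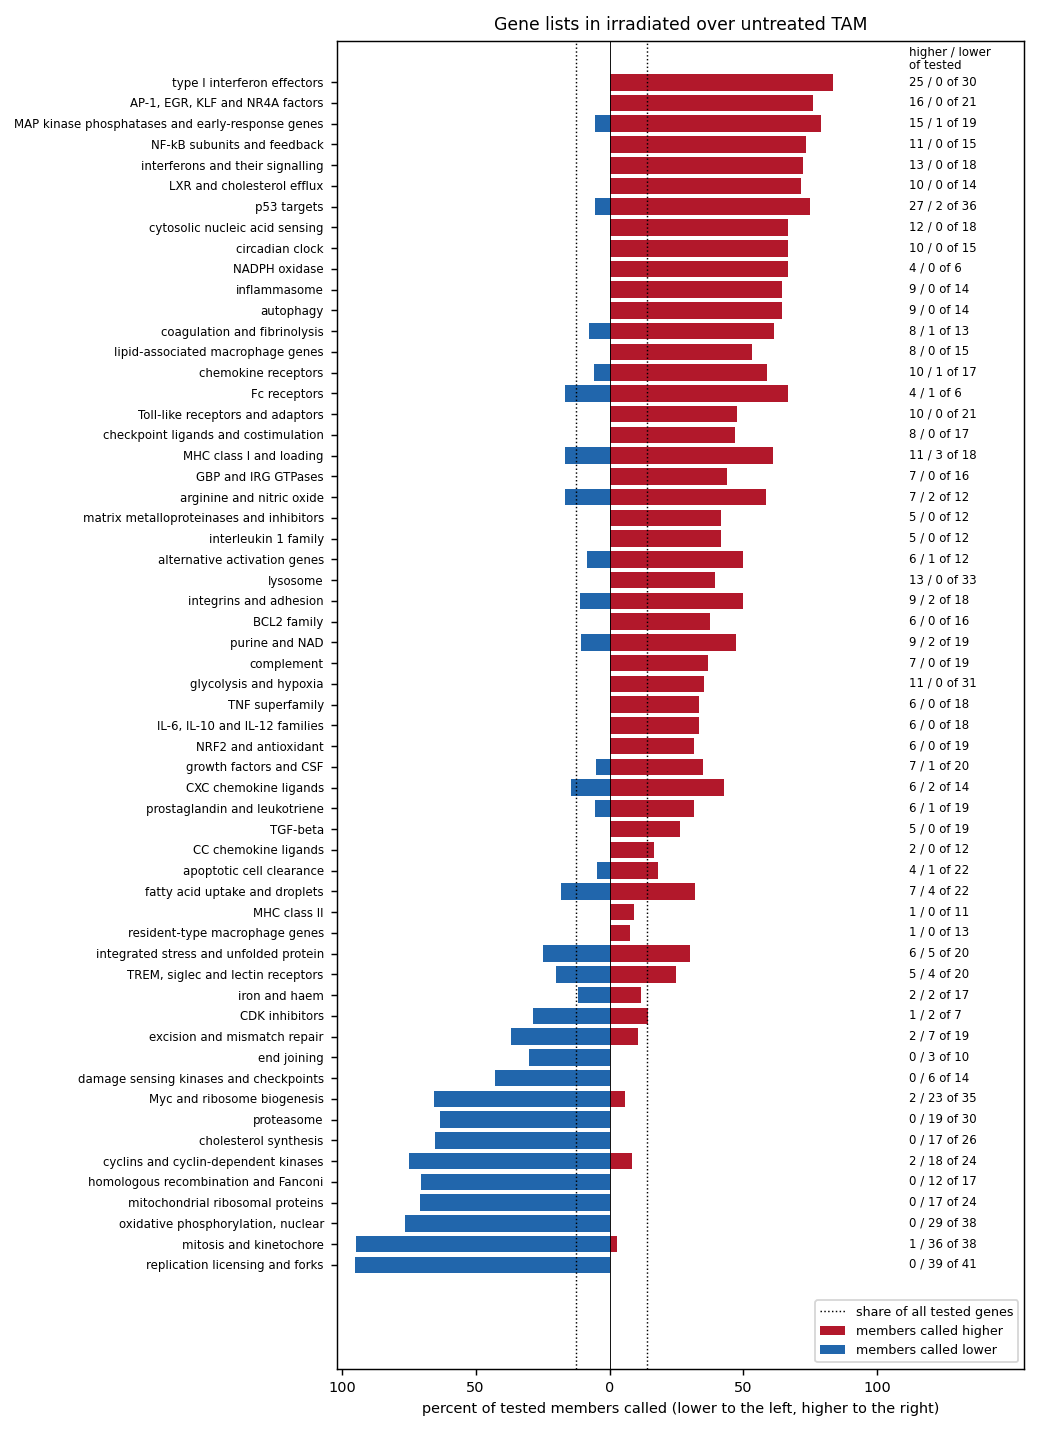
Percent of the tested members of each gene list called higher (red, right) or lower (blue, left), with the counts in the right column and dotted lines at the shares of all tested genes, 13.9% higher and 12.5% lower. Type I interferon effectors (25 of 30 higher) stand at one end and replication genes (39 of 41 lower) at the other.

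Targets of p53 were higher in most of their roles. Of 36 tested, 27 rose and 2 fell, with a median log2 fold change of 0.95 against 0.03 over all tested genes. Among 7 arrest genes 6 rose, and all 4 feedback genes rose. The feedback genes in the authors' deposited table had 1.58 for Mdm2, the ubiquitin ligase of p53, 1.25 for its partner Mdm4 and 0.39 for the phosphatase gene Ppm1d. Of 10 apoptosis genes 9 rose, with log2 fold changes of 2.30 for Perp and 1.41 for the death receptor gene Fas in the authors' deposited table. Among 15 genes of metabolism and repair, 8 rose and 2 fell. The epoxide hydrolase gene Ephx1 had 2.28 in the authors' deposited table, the stress cytokine gene Gdf15 had 1.68, and Sesn1 fell with -0.69 whereas its paralog Sesn2 had 1.57. The gene of p53 itself, Trp53, fell with -0.54 in the authors' deposited table. Among 7 tested inhibitors of cyclin-dependent kinases, Cdkn1a (p21) was the single one that rose, while Cdkn2c (-2.53) and the mitotic phosphatase gene Cdkn3 (-2.96) fell by log2 fold change in the authors' deposited table. In the BCL2 family, 6 of 16 rose and none fell. The killers Bbc3 (PUMA) and Bcl2l11 (BIM) had log2 fold changes of 2.01 and 1.13 in the authors' deposited table, and the survival gene Mcl1 had 0.98, while the survival gene Bcl2 had -0.63 without passing.

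Genes of DNA replication fell almost without exception: 39 of 41, with a median log2 fold change of -1.61. All 12 origin licensing genes fell, including the loading factors Cdc6 (-2.41) and Orc1 (-2.30) and the helicase subunit gene Mcm2 (-2.21) in the authors' deposited table. All 5 genes of the CMG helicase and GINS complex fell, as did 8 of 9 polymerase subunits and 7 of 8 clamp and ligation genes. The sliding clamp gene Pcna, also a p53 target, was among the milder at -0.81 in the authors' deposited table. All 7 genes of nucleotide supply fell, from -1.59 for thymidylate synthase (Tyms) to -2.80 for thymidine kinase (Tk1) in the authors' deposited table. The members outside the calls were Pold3 (-0.14) and the clamp loader gene Rfc1 (-0.28), by log2 fold change in the authors' deposited table.

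E2F factors drive replication genes at the entry to S phase, so their letters were searched in RefSeq promoter windows from 250 bases before to 50 after a gene's start. TTTGGCGC or TTTCCCGC, on either strand, stood in 12 of 38 windows of replication genes (31.6%) and in 2.74% of the 14607 windows of all tested genes. It stood in 5.34% of the windows of genes that fell and 2.03% of those that rose. These counts describe letters and show no binding. Stretches upstream of 3 helicase genes that fell are shown because they hold such a match, in capitals, in 5′ to 3′ direction of the gene (build GRCm38.p6, RefSeq). They lie at chr8:75109330-75109429 on the + strand (Mcm5), chr1:128359746-128359845 on the - strand (Mcm6) and chr5:138171979-138172078 on the - strand (Mcm7).
Mcm5: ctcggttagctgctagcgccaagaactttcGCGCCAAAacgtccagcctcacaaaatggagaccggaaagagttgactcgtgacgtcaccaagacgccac
Mcm6: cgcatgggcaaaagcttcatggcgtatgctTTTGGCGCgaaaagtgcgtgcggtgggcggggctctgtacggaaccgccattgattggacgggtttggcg
Mcm7: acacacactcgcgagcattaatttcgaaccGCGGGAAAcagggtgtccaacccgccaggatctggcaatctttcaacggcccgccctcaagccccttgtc
Counted from the gene's start, the match begins at position -149 in Mcm5, -110 in Mcm6 and -165 in Mcm7. The log2 fold changes of these genes in the authors' deposited table were -2.53, -2.07 and -2.22.

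Mitosis genes fell further than replication genes by the median, -2.46 over 38 tested members, of which 36 fell and 1 rose. All 7 mitotic kinases, all 13 centromere and kinetochore genes, all 8 motor and spindle genes and all 6 condensin and topoisomerase genes fell. The authors' deposited table has, on the log2 scale, -3.01 for the kinetochore gene Spc24, -2.85 for the motor gene Kif23 and -2.80 for Plk1. Securin, encoded by Pttg1, was the exception with a rise of 0.76 in the authors' deposited table. Among cyclins and cyclin-dependent kinases, 18 of 24 fell and 2 rose. All 9 genes of S phase to mitosis fell, with a median of -2.48, against 2 of 5 genes of early G1, with a median of -0.26. The pocket proteins that restrain E2F split: Rb1 (0.75) and Rbl2 (1.05) rose and Rbl1 (-0.56) fell, by log2 fold change in the authors' deposited table.

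The letters TTTGAA, the cell cycle homology region used by genes of late cell cycle, stood in 22 of 35 windows of mitosis genes (62.9%) against 12.8% of all windows. The CCAAT letters stood in 27 of the 35 (77.1%) against 37.4%. Both elements were searched on both strands and can overlap with other motifs. A stretch upstream of 2 condensin genes is shown, with the former match in capitals, at chr4:52439046-52439145 on the + strand (Smc2) and chr6:125191640-125191739 on the - strand (Ncapd2), again from RefSeq on GRCm38.p6.
Smc2: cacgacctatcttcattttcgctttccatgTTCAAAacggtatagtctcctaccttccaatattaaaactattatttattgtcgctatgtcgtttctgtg
Ncapd2: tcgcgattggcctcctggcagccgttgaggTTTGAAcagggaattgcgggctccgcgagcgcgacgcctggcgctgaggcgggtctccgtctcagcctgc
The match begins at position -145 in Smc2 and -123 in Ncapd2, counted from the start. Both genes fell, with log2 fold changes of -1.96 and -2.19 in the authors' deposited table.

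DNA repair genes differed by pathway. Of 17 genes of homologous recombination and the Fanconi pathway, which work mainly in S phase, 12 fell, with -2.74 for Brca1 and -2.79 for Fanci in the authors' deposited table. Of 10 end joining genes 3 fell. They were the Ku subunit genes Xrcc5 (-1.71) and Xrcc6 (-1.02) and Parp1 (-0.72), by log2 fold change in the authors' deposited table, while the DNA ligase IV gene Lig4 had 0.44 and the kinase gene Prkdc -0.10 there without passing. In excision and mismatch repair 2 of 19 rose, no more than the share of all tested genes (13.9%), and 7 fell. Both that rose are among the 9 nucleotide excision genes, of which 1 fell. They are the damage sensor Xpc and the nuclease Ercc5, each with 0.58 in the authors' deposited table. Among the damage kinases and their mediators 6 of 14 fell and none rose, with -2.22 for Chek1, and with -0.55 for Atm and -0.17 for Atr, which did not pass, in the authors' deposited table.

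Genes that build ribosomes, mitochondria and proteasomes fell by small steps. Of 23 nucleolar ribosome assembly genes, 19 fell (median log2 fold change -0.75), including the pseudouridine synthase gene Dkc1 (-1.64), nucleolin (Ncl, -0.75) and nucleophosmin (Npm1, -0.88) in the authors' deposited table. Myc, a transcription factor that drives such genes, fell with -1.19, and its antagonist Mxd1 rose with 1.69 in the authors' deposited table. Of 24 mitochondrial ribosomal protein genes 17 fell, and of 38 nuclear genes of oxidative phosphorylation 29 fell, at medians of -0.46 and -0.35. All 7 genes of ATP synthase fell, against 10 of 14 of complex I and 2 of 4 of complex II. Of 14 core proteasome genes 10 fell and of 11 regulatory ones 9 fell, with a median of -0.34 for the core. None of the 5 genes of the interferon-inducible immunoproteasome and its activator passed, and their median was -0.01. These medians are small beside those of the division genes.

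**Figure D4:**
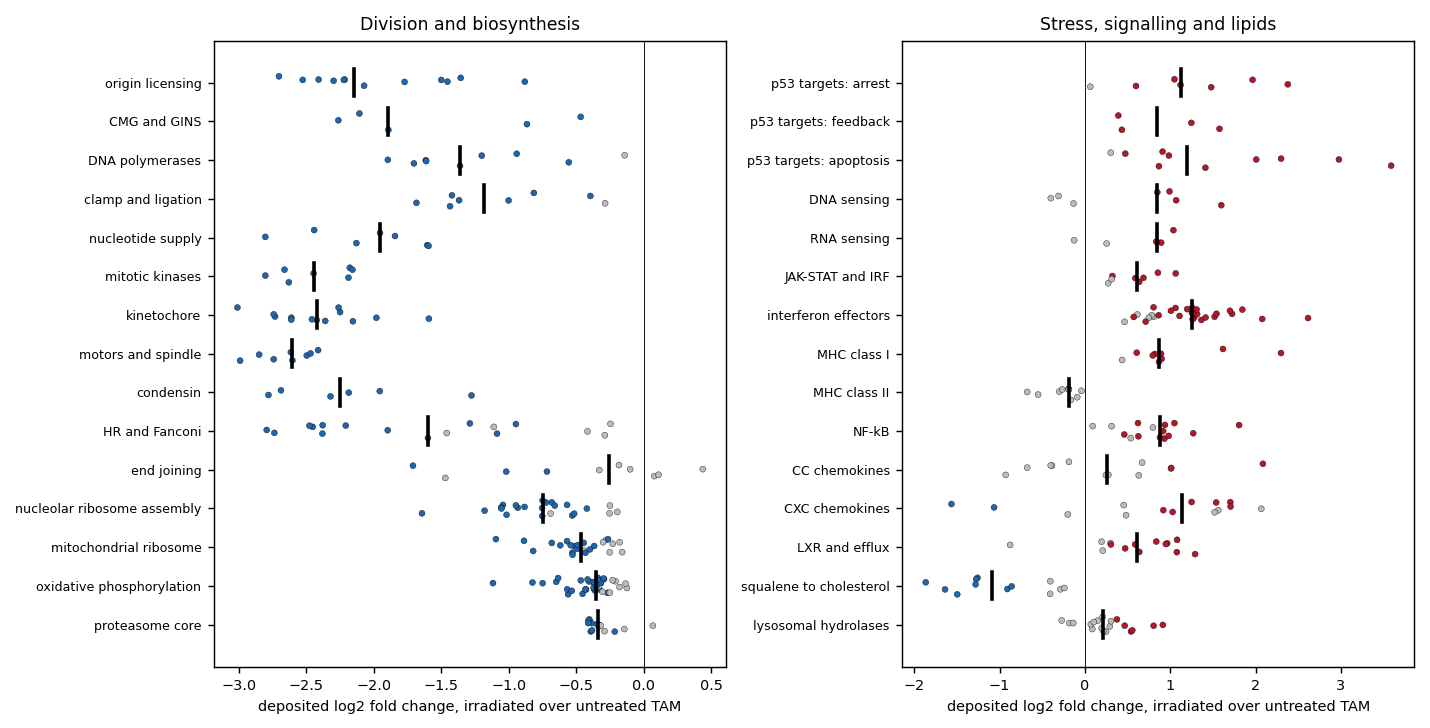
Each point is the deposited log2 fold change of one gene in irradiated over untreated TAM, grouped by role, with genes that rose in red, genes that fell in blue, the others in grey, and a bar at each group's median. Replication and mitosis groups lie mostly between -3 and -1, biosynthesis groups between -1 and 0, and interferon effectors between 0.46 and 2.62.

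Interferon genes were higher from sensors to effectors. Of 18 tested genes of cytosolic nucleic acid sensing, 12 rose and none fell. Among DNA sensors, Ifi205 (1.60), Ifi204 (0.99) and Zbp1 (0.85) rose, while cGAS (Cgas, -0.40) and STING (listed as Tmem173, -0.31) did not pass, by log2 fold change in the authors' deposited table. The RNA sensor genes Ddx58 (RIG-I, 1.04) and Ifih1 (MDA5, 0.84) rose in the authors' deposited table. Of 5 interferon ligand genes listed, 2 had an adjusted p, and neither of these passed. Ifnb1 was listed with a mean of 3.75 over all libraries and a log2 fold change of 0.78 (adjusted p = 0.57) in the authors' deposited table. Of 18 tested genes of interferon ligands and signalling 13 rose, among them 3 of 4 receptor subunits, Stat2 (1.06) and Irf9 (0.64), by log2 fold change in the authors' deposited table. All 4 brakes on the pathway rose, with 1.44 for the deconjugase gene Usp18 and 1.13 for Socs1 in the authors' deposited table.

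Of 30 tested effectors of type I interferon, 25 rose and none fell, and the median log2 fold change was 1.26. All 6 OAS genes rose, and 6 of 7 genes of the IFIT, MX and viperin group rose. Mx1 had 1.73, Ifit1 1.52 and Isg15, a ubiquitin-like modifier, 1.31 in the authors' deposited table. Slfn4, a Schlafen gene of myeloid cells, had the largest fold at 2.62 in the authors' deposited table. Guanylate-binding and IRG GTPases, which act on vacuoles that hold microbes, rose in 7 of 16 cases, with 1.30 for Tgtp1 and 1.02 for Gbp6 in the authors' deposited table. Many of these genes have near-identical neighbours (Oas1a and Oas1g, Ifit3 and Ifit3b, Tgtp1 and Tgtp2), so reads may have been divided between copies and single values are uncertain.

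The core letters of the interferon-stimulated response element, GAAANNGAA on either strand, stood in 16 of 30 promoter windows of effectors (53.3%). The share was 7.56% over all windows, 9.97% for genes that rose and 7.1% for genes that fell. Stretches upstream of 3 effectors are shown with complete matches in capitals, at chr5:120777665-120777764 on the - strand (Oas3), chr12:26456502-26456601 on the - strand (Rsad2) and chr19:34640750-34640849 on the + strand (Ifit1), from RefSeq on GRCm38.p6.
Oas3: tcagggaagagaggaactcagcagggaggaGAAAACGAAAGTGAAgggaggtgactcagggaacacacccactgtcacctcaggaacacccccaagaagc
Rsad2: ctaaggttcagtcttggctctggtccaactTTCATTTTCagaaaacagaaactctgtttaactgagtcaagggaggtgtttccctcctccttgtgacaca
Ifit1: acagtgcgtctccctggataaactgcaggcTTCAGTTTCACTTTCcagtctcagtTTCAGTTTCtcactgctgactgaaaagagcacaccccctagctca
The stretches hold 2, 1 and 3 matches, with neighbouring matches overlapping, and the first begins at positions -75, -119 and -109 from the start. Oas3, Rsad2 and Ifit1 had log2 fold changes of 1.84, 2.08 and 1.52 in the authors' deposited table.

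Antigen presentation moved by class. Of 9 class I chains, 8 rose, with a median log2 fold change of 0.87. H2-K1 had 0.89 and H2-D1 0.90 in the authors' deposited table, whereas the larger values of the Qa genes H2-Q6 (2.30) and H2-Q7 (1.62) belong to near-identical copies and are uncertain. Among 9 loading genes 3 rose and 3 fell: Tap2, Tapbp and the class I transactivator gene Nlrc5 (1.05) rose, and the chaperone genes Pdia3 (-0.75), Calr (-0.51) and Canx (-0.35) fell, by log2 fold change in the authors' deposited table. None of 10 class II genes passed, and their median was -0.19. The invariant chain gene Cd74 had -0.09 and the class II transactivator gene Ciita -0.30 in the authors' deposited table. Of 17 tested costimulation and checkpoint genes 8 rose and none fell. Besides Tnfsf4 these included Cd80 (1.29), Cd86 (0.86), the PD-1 ligand genes Cd274 (1.37) and Pdcd1lg2 (1.37), and Sirpa (0.48), the receptor for the signal CD47, by log2 fold change in the authors' deposited table.

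Toll-like receptor, NF-kB and inflammasome genes had members that rose and none that fell. Of 21 Toll-like receptor genes and adaptors 10 rose and none fell, led by the flagellin receptor gene Tlr5 (1.41), Tlr2 (0.99) and the bacterial RNA receptor gene Tlr13 (0.79) in the authors' deposited table. The LPS receptor gene Tlr4 had 0.55 there (adjusted p = 0.065). Of 15 NF-kB subunits and feedback genes 11 rose and none fell. The 5 subunits and 10 inhibitors had like medians, 0.88 and 0.87. The inhibitor genes Nfkbia (1.27) and Tnfaip3 (A20, 1.81) and the subunit genes Nfkb2 (0.93), Relb (0.92) and Rela (0.46) rose by log2 fold change in the authors' deposited table. Of 14 inflammasome genes 9 rose and none fell. The sensor genes Mefv (pyrin, 1.59), Naip5 (1.03) and Nlrp3 (0.89) rose, while the protease gene Casp1 had 0.04 and Nlrc4 0.03 in the authors' deposited table. In the interleukin 1 family 5 of 12 genes were called higher. Il1a had 1.68, Il1b 1.50, the antagonist gene Il1rn, which blocks both, 1.90, and the IL-18 binding protein gene Il18bp 1.07 in the authors' deposited table. The fifth is the neutrophil-expressed Il1f9 (IL-36 gamma), whose log2 fold change of -0.03 goes against its Wald statistic of 4.62 in the authors' deposited table. None of the family's 4 receptor genes passed.

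Cytokine ligands were mixed. Among the IL-6, IL-10 and IL-12 families 6 of 18 rose and none fell: Il6 (1.51), oncostatin M (Osm, 1.02) and the IL-12 p35 gene Il12a (1.96) rose among ligands, while Il12b had 0.52 and Il10 -0.71 in the authors' deposited table without passing. In the TNF superfamily 6 of 18 rose, with 0.92 for Tnf, 2.23 for the 4-1BB receptor gene Tnfrsf9 and 1.25 for Tnfrsf1b in the authors' deposited table. In the TGF-beta pathway 5 of 19 rose. None of its 5 receptors passed, and the inhibitory genes Smad7 (0.69) and Skil (0.84) were among those that rose in the authors' deposited table.

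Chemokines split by family. Of 12 tested CC ligands 2 rose, close to the share of all genes: Ccl5 (2.09) and Ccl9 (1.01) by log2 fold change in the authors' deposited table. The monocyte attractant gene Ccl2 had -0.39 and Ccl8 -0.68 there without passing. Of 6 CXC ligands of the ELR and platelet type 5 rose, including Cxcl1 (1.25), Cxcl2 (1.03) and Cxcl3 (1.70), which attract neutrophils, in the authors' deposited table. The CXCR3 ligands diverged, since Cxcl11 rose with 1.54, Cxcl9 fell with -1.06 and Cxcl10 had 0.48 (adjusted p = 0.18) in the authors' deposited table. Of 17 receptors 10 rose and 1 fell. Cxcr4, the receptor of CXCL12, had 2.05, the formyl peptide receptor gene Fpr1 1.36 and the scavenging receptor gene Ackr3 1.32 in the authors' deposited table. Cx3cr1, the fractalkine receptor of patrolling monocytes and many tissue macrophages, fell with -2.44, and the ligand gene Cx3cl1 fell with -1.56 in the authors' deposited table. Ccr3 (2.46) and Cxcr2 (0.58), which also rose in the authors' deposited table, are among the eosinophil and neutrophil markers given above.

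Lipid mediators and arginine enzymes also changed. In prostaglandin and leukotriene metabolism 6 of 19 genes rose and 1 fell. Ptgs2 (COX-2, 1.23), the prostacyclin receptor gene Ptgir (1.63) and Pla2g7 (1.47), which degrades platelet-activating factor, rose, and the prostaglandin D synthase gene Hpgds (-1.88) fell in the authors' deposited table. Of 12 arginine and nitric oxide genes 7 rose and 2 fell. Both classical programmes had members that rose, namely Nos2 (1.80), inducible nitric oxide synthase, and Arg1 (0.88) and Arg2 (2.80), by log2 fold change in the authors' deposited table. The spermidine synthase gene Srm (-1.61) and the arginine transporter gene Slc7a1 (-1.21) fell, while the transporter gene Slc7a2 (1.23) rose in the authors' deposited table. Of 12 alternative activation genes 6 rose and 1 fell. Chil3, which is also a monocyte marker, and Retnla (2.91) led, Klf4 had 1.46 and the IL-4 receptor gene Il4ra 0.62, whereas the lectin gene Clec10a fell with -0.80 and the mannose receptor gene Mrc1 had -0.25 in the authors' deposited table.

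Resident-type and lipid-associated macrophage genes differed in their counts. Of 13 resident-type genes 1 rose, no more than the share of all tested genes (13.9%), and none fell. Lyve1 and Folr2 had log2 fold changes of 0.74 and 0.47 in the authors' deposited table without passing. F13a1, which did not pass either, had 0.23 there beside a Wald statistic of -0.99. Fcrls and Cx3cr1, also described here as genes of resident or tissue macrophages, fell but lie outside this list. Of 15 tested lipid-associated macrophage genes 8 rose and none fell. Gpnmb had 1.86 and cathepsin L (Ctsl) 0.91, while Trem2 (0.30) and Spp1 (0.55) did not pass in the authors' deposited table. In the clearance of apoptotic cells 4 of 22 rose and 1 fell, a number of higher calls near the 13.9% of all tested genes. Mertk, its bridging ligand Pros1 (0.72), Lrp1 (0.98) and the phosphatidylserine receptor gene Adgrb1 (2.02) rose, Stab1 fell with -0.67, and Axl had -0.46 in the authors' deposited table. The mean normalised count of Adgrb1 over all libraries was low, at 14.8. None of the 5 tested engulfment genes passed.

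Complement differed between the listed roles. None of 7 classical pathway genes passed, at a median log2 fold change of -0.08, whereas 3 of 4 genes listed as alternative rose. C3, which both pathways use, was counted among the latter and had 2.46 in the authors' deposited table. The others that rose were factor B (Cfb, 1.04) and Cfp (0.37), by log2 fold change there. Among receptors and brakes 4 of 8 rose, including Itgam, the CD11b chain of complement receptor 3 used in the gate (1.02), the anaphylatoxin receptor gene C3ar1 (0.89) and the decay factor gene Cd55 (1.84) in the authors' deposited table. Of 6 tested Fc receptor genes 4 rose, both activating (Fcgr1, Fcgr3, Fcgr4, at 0.65 to 0.81) and inhibitory (Fcgr2b, 0.65), and Fcgrt, which recycles IgG, fell with -1.19 in the authors' deposited table. Of 6 tested subunits of the NADPH oxidase 4 rose, with 0.65 for Cybb and 0.69 for Ncf1 in the authors' deposited table.

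Cholesterol synthesis and efflux moved apart. Of 26 tested synthesis genes 17 fell and none rose. They include 6 of 7 mevalonate genes and 8 of 12 genes from squalene to cholesterol, the latter at a median log2 fold change of -1.08. Sqle had -1.87 and Fdps -1.80 in the authors' deposited table. The sterol carrier gene Stard4 fell with -1.71 in the authors' deposited table. All 6 efflux genes rose, with 1.29 for the transporter gene Abca1 and 0.84 for the lysosomal carrier gene Npc2, and the sterol-sensing receptor gene Nr1h3 (LXR alpha) rose with 0.95 in the authors' deposited table. The letters ATCACNCCA of the sterol regulatory element stood in 1 of 27 promoter windows of this list (3.7%) against 0.575% of all windows. That match lies in the regulator gene Srebf2, and none was found in the window of an enzyme gene. The letters CCAAT stood in 19 of 27 (70.4%) against 37.4%. In fatty acid metabolism 7 of 22 rose and 4 fell. Of 7 droplet genes 5 rose, with 1.27 for Plin2, 1.66 for Dgat2 and 1.33 for Hilpda, while the synthesis genes Fasn (-2.18), Scd1 (-1.43) and Elovl6 (-1.64) fell in the authors' deposited table. The droplet gene that inhibits lipolysis, G0s2 (1.80 there), is also a neutrophil marker.

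Hypoxia regulators and stress genes rose in part. Of 31 glycolysis and hypoxia genes 11 rose and none fell. Besides Hif1a, the regulators Egln1 (0.54) and Egln3 (0.59), which mark HIF for destruction, rose in the authors' deposited table. Of 16 glycolysis genes 5 rose. The kinase gene Pfkfb3 had 1.29 and the glucose transporter gene Slc2a1 0.44, whereas Ldha (-0.03) and Pgk1 (0.03) did not pass in the authors' deposited table. The integrated stress and unfolded protein responses had 6 of 20 genes that rose and 5 that fell. Serine and asparagine synthesis genes, Psat1 (-2.10), Phgdh (-1.50) and Asns (-1.54), and the ER chaperone gene Hspa5 (-0.72) fell, while Ddit4, an mTOR inhibitor gene (1.82), and Sesn2 rose in the authors' deposited table. Of 19 NRF2 and antioxidant genes 6 rose and none fell. Slc7a11, the cystine transporter gene, had 1.54 and Gsr 1.41, but the classical targets Nqo1 (-0.89) and Hmox1 (-0.02) did not pass in the authors' deposited table. Of 17 iron genes 2 rose and 2 fell, no more than the shares of all tested genes (13.9% and 12.5%), with the transferrin receptor gene Tfrc at -1.25 and the ferritin gene Fth1 at 0.70 in the authors' deposited table.

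Early-response and clock genes rose broadly. Of 21 AP-1, EGR, KLF and NR4A factors 16 rose and none fell, at a median log2 fold change of 1.00. Fos had 1.18, Junb 1.08, Egr2 1.60, Klf6 1.02 and Nr4a1 1.22 in the authors' deposited table. Of 19 MAP kinase phosphatases and early-response genes 15 rose and 1, Dusp4 (-1.07 in the authors' deposited table), fell. All 3 ZFP36 genes, whose proteins destabilise cytokine mRNA, rose. The AP-1 letters TGANTCA stood in 8.37% of the promoter windows of genes that rose, 3.38% of those that fell and 5.72% of all. They stood in 0 of 23 windows of the AP-1, EGR, KLF and NR4A list and in 9 of 30 windows of interferon effectors (30%). Such counts describe letters and show no binding. Of 15 tested circadian clock genes 10 rose and none fell. The repressor and output genes carried this, with 1.27 for Per2, 1.22 for Nr1d1 and 1.18 for Dbp, while the activators Clock (0.20) and Arntl (0.15) did not pass in the authors' deposited table. The labels give no hour of harvest.

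Among genes that act on matrix, vessels and adhesion, more rose than fell. Of 12 metalloproteinase genes and inhibitors 5 rose and none fell, with 0.64 for Mmp14 and 0.93 for Adam8 in the authors' deposited table. Mmp9 (1.41) and Mmp8 (1.44), which also rose there, belong to the neutrophil markers. Of 18 integrins and adhesion genes 9 rose and 2 fell. Selplg, the selectin ligand gene, had 1.17 and Itgb2 0.70, while Vcam1 (-1.20) and Itga6 (-0.81) fell in the authors' deposited table. Of 20 growth factor and colony-stimulating factor genes 7 rose and 1 fell. Vegfa had 1.50, its receptor gene Flt1 1.69 and the EGF family gene Areg 1.49, whereas Vegfb fell with -1.22 in the authors' deposited table. Of 13 tested genes of coagulation and fibrinolysis 8 rose and 1 fell. The coagulation genes F5 (2.12), F10 (1.60) and tissue factor (F3, 0.87) and thrombospondin 1 (Thbs1, 1.74) rose, and urokinase (Plau, -1.17) fell, by log2 fold change in the authors' deposited table. In purine and NAD metabolism 9 of 19 rose and 2 fell. Adenosine receptors Adora2a (1.85) and Adora2b (1.21) rose, and the adenosine-removing enzymes Ada (-1.13) and Adk (-0.84) fell in the authors' deposited table.

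Among TREM, siglec and lectin receptors 5 of 20 rose and 4 fell. The lectin genes Clec4d (1.57) and Clec4e (Mincle, 1.26) rose, while Treml4 (-1.88), Trem3 (-0.87) and Clec12a (-0.73) fell in the authors' deposited table. Of 33 lysosome genes 13 rose and none fell, at a median of 0.26. The proton pump subunit gene Atp6v0d2 had 1.87 and the lysosomal membrane gene Lamp2 0.65, while the lipase gene Lipa had 0.21 in the authors' deposited table. Of 14 autophagy genes 9 rose and none fell, with 0.96 for the initiating kinase gene Ulk1 and 0.89 for the receptor gene Optn in the authors' deposited table.

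The same tumours gave libraries of inflammatory monocytes (Ly6C+, Ly6G-; 9 irradiated, 5 untreated) and granulocytes (Ly6C+, Ly6G+; 7 and 5), which were compared with TAM over genes tested in both. In inflammatory monocytes 856 genes of 14506 were called (5.90%), and in granulocytes 2699 of 15679 (17.2%). Of the genes that rose in TAM, 347 of 2271 also rose in inflammatory monocytes (15.3% of the TAM list and 57.9% of the monocyte list), and 492 of 2312 also rose in granulocytes (21.3% and 42.9%). Of those that fell in TAM, 156 of 2076 also fell in inflammatory monocytes (7.51% and 60.7%) and 616 of 2095 in granulocytes (29.4% and 39.7%). The group sizes and calling rates differ between subsets, so these shares do not measure how alike the responses are.

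For p53 targets the deposited values differed side by side. Phlda3 passed in all 3 subsets, with log2 fold changes of 3.59 (TAM), 2.75 (inflammatory monocytes) and 2.23 (granulocytes) in the authors' deposited tables. Ccng1 and Ephx1 also passed in all 3 subsets, each with a positive fold. The genes given here are examples, and p53 targets that passed were not counted in the other subsets. Cdkn1a had 2.38 in TAM, 0.36 in inflammatory monocytes (adjusted p = 0.44) and -0.30 in granulocytes (adjusted p = 0.46) in the authors' deposited tables, and Mdm2 had 1.58, 0.18 and -0.10. Mcm5 fell in all 3 subsets, with -2.53, -0.96 and -1.92 in the authors' deposited tables. Cyp51, a sterol demethylase gene, also fell in all 3, with -1.64, -1.58 and -1.15 there. The macrophage gene C1qa, with -0.08 in TAM, rose in inflammatory monocytes with 1.26 in the authors' deposited tables. The size of these differences between subsets was not tested, because that needs single libraries or standard errors.

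A test of opposite directions could be made. For genes whose Wald statistics differ in sign it uses the higher p of the pair, adjusted over genes tested in both (Benjamini-Hochberg). No gene was called between TAM and inflammatory monocytes (0 of 14506, 0%), with 132 at an unadjusted p under 0.05 and a smallest adjusted p of 0.53. Between TAM and granulocytes 15 genes were called (0.0957%), with 489 at an unadjusted p under 0.05, and all 15 rose in TAM and fell in granulocytes. None of the 15 is among the 91 genes that passed in TAM after division by the robust SD over all tested genes. Several are feedback or early-response genes. Socs3, an inhibitor of JAK-STAT signalling, had log2 fold changes of 1.09 in TAM and -1.16 in granulocytes, and the survival gene Mcl1 had 0.98 and -0.63, in the authors' deposited tables. The kinase gene Braf had 0.99 and -1.41, the salt-inducible kinase gene Sik1 had 1.26 and -0.95, and the circadian repressor gene Nfil3 had 1.23 and -0.86 in the authors' deposited tables. In inflammatory monocytes the 15 genes lay between -0.36 for Nfil3 and 0.31 for Gla (the alpha-galactosidase gene) in the authors' deposited table, and none passed there.

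**Figure D5:**
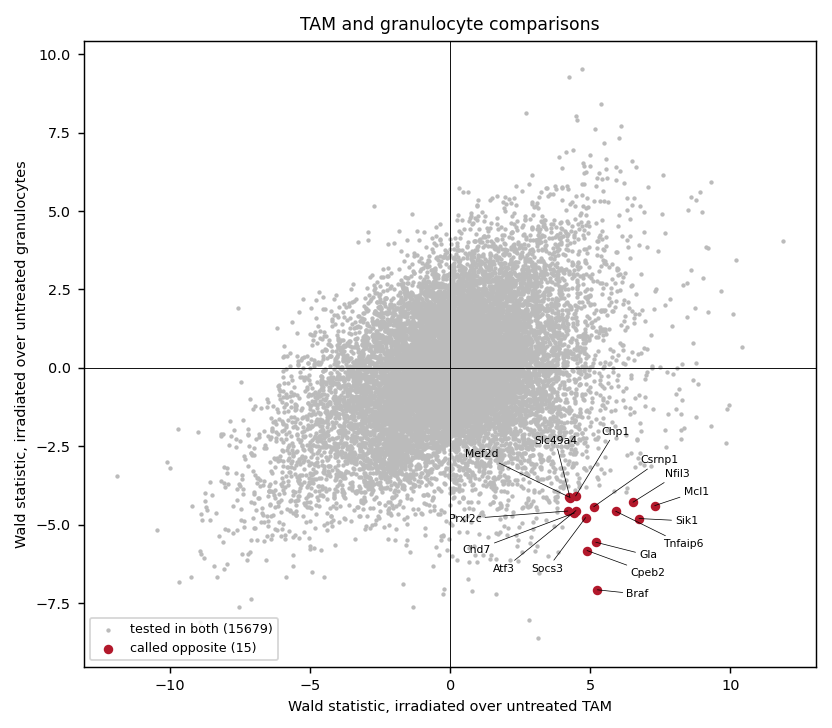
Wald statistics of the 15679 genes tested in both TAM (horizontal) and granulocytes (vertical), irradiated over untreated, with the 15 genes called opposite in red. All 15 lie at the lower right, with a positive statistic in TAM and a negative one in granulocytes.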

How the data were processed

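Per the submitters' processing notes, the tools were STAR 2.7.6a after fastp 0.20.1, and DESeq2 1.28.1 under R 4.0.2, on build mm39 (GRCm39). Per the labels' protocols, low-input cDNA was made into Nextera XT libraries, which keep no strand. How reads were counted, the covariates of the model and the annotation's release: not given in the sources used here. The authors deposited one table per comparison. Its mean normalised count, a signal, was averaged by the authors over libraries of all subsets, with the same value in all 3 tables for all 55453 genes. The deposited log2 fold changes were read as shrunken. The deposited Wald statistic is a score, and the deposited p-values equal its 2-sided normal p to within 0.0021 in log10 units. Adjusted p-values of the authors equal Benjamini-Hochberg values over the 16851 tested genes, the lowest with a mean of 2.50. They weigh each effect against the variation between libraries only, as the authors' model estimated it. Whether that model also drew on libraries of the other subsets is not given.

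Calls were counted in Python 3.11.15 (numpy 2.4.6, pandas 2.3.3, scipy 1.17.1). The 69 gene lists (1195 genes, 1193 in the table under their own or an alias symbol) and the scope of the report were chosen with earlier results of these data known. A further 11 families were added after seeing values. Lists were described without a test. Named genes were called genes with a mean of 50 or more and an absolute fold of 1 or more (log2), the 25 with the smallest adjusted p and the 12 with the largest fold in each direction (adjusted p under 0.001), and per list up to 4 called members in each direction. Some genes that this rule takes are not reported here. Other list members were named for their role after their values were seen.

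RefSeq promoter windows (GRCm38.p6, an earlier build than the files' own) were matched by symbol for 11487 of 16851 tested genes (68.2%). Their coordinates belong to that build. Sequences shown are those whose window ends before the start, among the members with the smallest p. The counting and the test of opposite directions were tested on simulated Wald statistics with known answers.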

Additional observations from a re-analysis of the deposited data

Results flagged for a closer look

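The effect of irradiation had opposite directions in TAM and granulocytes for 15 genes, each higher in irradiated TAM and lower in irradiated granulocytes. The deposited statistics spread widely, and 0 of these 15 genes are among the 91 that passed in TAM after division by the robust SD over all tested genes. Adjusted p-values of the test of opposite directions (Benjamini-Hochberg over genes tested in both) were 0.0016 for Braf, 0.0016 for Gla, 0.0055 for Cpeb2, 0.0056 for Sik1 and 0.0056 for Socs3. They were 0.013 for Tnfaip6, 0.016 for Atf3, 0.016 for Csrnp1, 0.016 for Chd7 and 0.018 for Mcl1. The others had 0.026 for Nfil3, 0.036 for Prxl2c, 0.042 for Slc49a4, 0.042 for Mef2d and 0.046 for Chp1. Tnfaip6, a secreted protein gene that binds hyaluronan, had the largest log2 fold change in TAM, 1.62, with -1.30 in granulocytes, in the authors' deposited tables. Cpeb2, a translation regulator gene, had 1.12 and -1.43, and Gla had 1.09 and -1.24, in the authors' deposited tables. Mef2d had the smallest pair, 0.63 and -0.65, in the authors' deposited tables.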

How the results depend on the processing

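Against 4448 calls (2340 higher, 2108 lower), an adjusted p under 0.01 gave 2918 calls (1495 higher) and a fold minimum of 1 (log2, either sign) gave 1657 (903 higher, 754 lower). Division of the Wald statistics by their robust SD gave 0 calls (0 higher, 0 lower), and division by that over all tested genes, an alternative chosen after seeing the data, gave 91 (44 higher, 47 lower). The cause of the wide spread was not tested. Subtracting the median statistic left 4449 calls with 44.7% higher instead of 52.6%. The opposite test against inflammatory monocytes gave 3 genes with direction taken from the fold, and that against granulocytes gave 5 at 0.01 and 43 at 0.1. With direction from the deposited log2 fold change, all 16 called genes whose fold and statistic differ in sign reversed (2324 higher calls), among them S100a9 (-1.24) and, of the genes taken by the naming rule, Camp (-0.77), Ngp (-0.59) and Il1f9 (-0.03). No paired analysis was possible because untreated and irradiated tumours carry different numbers, and leaving out single libraries was not run because no single library's values were analysed here. Depth is unknown, so its limit on low genes cannot be stated. Of 16851 tested genes, 3345 had a mean up to 10, and 5.2% of these were called.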

Other observations

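Families grouped by symbol after their values were seen add to the picture and carry no test. All 8 subunits of the chaperonin CCT, which folds actin and tubulin, fell, at a median log2 fold change of -0.66. Of 20 cytosolic aminoacyl-tRNA synthetases, which charge tRNA with amino acids, 15 fell and none rose (median -0.54). Of 46 tested nuclear transport and pore genes 22 fell and 1 rose, and of 22 Sm and LSm spliceosome genes 17 fell and 1 rose. Of 36 tested genes of the histone clusters, whose mRNAs mostly lack poly(A) tails, 21 fell and none rose. Among H2A and H3 variant histones 3 fell and 2 of 11 rose.

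Other families are given beside the shares of all tested genes, 13.9% higher and 12.5% lower. Of 12 tested MS4A genes, a family of membrane proteins that includes the macrophage marker Ms4a7, 7 rose and none fell (median 1.04). Ms4a8a had a log2 fold change of 1.88 and Ms4a4c 1.33 in the authors' deposited table. Of 18 adhesion G protein-coupled receptor genes 5 rose and 1 fell, with 2.46 for Adgre4 and -2.37 for Adgrl1 in the authors' deposited table. The mean normalised count of Adgrl1 over all libraries was low, at 7.95. Of 47 TRIM genes, many of which encode antiviral ubiquitin ligases, 13 rose and 6 fell, with 1.44 for Trim30d and -2.03 for Trim59 in the authors' deposited table. Of 43 orphan receptors named GPR 9 rose and 4 fell, with -1.31 for the microglia-enriched gene Gpr34 in the authors' deposited table.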
